A study of Mus musculus with 12 samples.

Results

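A stretch of mouse chromosome 19 that holds Ide, Fgfbp3 and 7 of their neighbours was followed in abdominal fat pads of female mice lacking p47phox and of wild type mice. The 9 genes, Ide, Fgfbp3, 4931408D14Rik, Btaf1, Cpeb3, Marchf5, Hhex, Exoc6 and Tnks2, were chosen by their place on the chromosome and by null against wild type values of these same arrays, so every null against wild type value of these genes is given as a description, with no test. They are measured by 26 probe sets with a single gene in the platform annotation, of 18193 genes and 45101 probe sets in all. Genes with several probe sets have them numbered here from the widest gap between the genotypes, or the least overlap, downward, with their array identifiers in the plots. A pair of Exoc6 probe sets that also carry Sh3glb1 was left out.

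The study asked how the loss of p47phox and a high fat diet alter gene expression in fat. The 4 groups have 3 arrays each and are null mice on the high fat diet, null mice on casein, wild type mice on the high fat diet and wild type mice on casein. All mice were female and of C57BL/6 background, a substrain is not named, and the diets began at postnatal day 28 and ran for 13 weeks. Fat pads were pooled for each array, from a number of animals that the labels do not state, and p-values therefore measure the spread between pools, which may be partly technical. The null mice are labelled only as p47phox knockouts, that is, mice without the cytosolic NADPH oxidase subunit encoded by Ncf1.

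Ide encodes the insulin-degrading enzyme, a zinc metallopeptidase that cleaves insulin, amylin and other small peptides and helps clear insulin from the circulation. Fgfbp3 encodes a secreted protein that binds fibroblast growth factors and releases them from the extracellular matrix, and in mice it has been linked to fat mass and glucose handling. Among C57BL/6J mice, a segment of this chromosome that holds both genes is known to vary in copy number. DNA was not measured here, and the part of copy number in any value below was not tested.

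The deposited values are log2 values centred on the median of the 12 arrays for each probe set, so they carry differences between pools and no level, and the absence of a tissue marker cannot be read from them. Centring also means that 0 is the middle of the 12 pools, and that for a probe set whose 6 null and 6 wild type pools do not overlap the inner pools of the 2 genotypes lie equally far from 0. The knockout showed in Ncf1 itself, where one probe set lay between -0.54 and -0.33 in the 6 null pools, against 0.33 to 1.71 in the 6 wild type pools. A second also separated the genotypes, between -0.27 and -0.16 in null pools and between 0.16 and 0.83 in wild type pools, while the third overlapped. Other tissues varied among pools: the median of 15 skeletal muscle markers ran from -2.13 to 3.79 in null pools and from -1.89 to 4.58 in wild type pools, and the median of 13 liver markers reached 4.58 in wild type casein pool 3. Because fat pads are mixed tissue, fewer cells of a type and less RNA per cell cannot be told apart in any value given here.

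The RefSeq promoter table (GRCm38.p6) held all 9 genes. The 250 bases before the start of Ide and of Fgfbp3 are shown because these genes have the widest gaps between genotypes. They come from chr19:37334545-37334794 for Ide and chr19:36919600-36919849 for Fgfbp3, both on the minus strand, and are written 5′ to 3′ along the gene. Capitals mark a CCAAT box, read on either strand (CCAAT or its complement ATTGG).
Ide: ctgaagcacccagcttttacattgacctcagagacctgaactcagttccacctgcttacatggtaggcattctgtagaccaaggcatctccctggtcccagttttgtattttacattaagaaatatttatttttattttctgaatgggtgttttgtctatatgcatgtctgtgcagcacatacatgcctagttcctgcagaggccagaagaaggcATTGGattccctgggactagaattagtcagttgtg
Fgfbp3: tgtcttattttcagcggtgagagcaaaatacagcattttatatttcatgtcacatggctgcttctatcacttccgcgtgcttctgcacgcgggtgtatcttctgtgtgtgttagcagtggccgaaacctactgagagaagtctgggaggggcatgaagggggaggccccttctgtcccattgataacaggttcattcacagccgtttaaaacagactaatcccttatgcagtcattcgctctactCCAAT
The Ide window is 42.8% G and C and holds 0 CpG dinucleotides. The Fgfbp3 window is 47.2% G and C and holds 8 CpG dinucleotides, with its CCAAT box at the very end. Among the 32851 windows of the table the median was 52.4% G and C and 6 CpG dinucleotides, and 33.8% of windows hold a CCAAT box on either strand, so the match in both windows is a description of letters and no more.

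Ide was higher in null pools at 4 of its 5 probe sets, with no overlap between the 6 null and the 6 wild type pools. At probe set 1, which had the widest gap of the Ide probe sets, the 3 null pools on casein stood at 0.40, 0.32 and 0.27, against -0.25, -0.60 and -0.54 in the wild type pools on casein. On the high fat diet the null pools stood at 0.35, 0.26 and 0.25, against -0.34, -0.63 and -0.28 in the wild type pools. The null pools of both diets were thus a tight group, and the lowest of them lay 0.49 above the highest wild type pool. Among 45037 probe sets that gap ranked 17th when all gaps between the genotypes, in either direction, were ordered by width. The genes were chosen by this contrast, so this rank and those given below are descriptions only. The difference over both diets was 0.75 ± 0.08 (SE of the limma fit, 6 pools a genotype), a 1.68-fold higher value in null pools. It was 0.79 ± 0.12 among casein pools and 0.70 ± 0.12 among high fat pools (SE, 3 pools a group).

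The other Ide probe sets gave the same picture except for one. At probe set 2 the null pools lay at 0.21, 0.37 and 0.41 on casein and at 0.30, 0.34 and 0.39 on the high fat diet. The wild type pools lay at -0.21, -0.65 and -0.54 on casein and at -0.52, -0.57 and -0.27 on the high fat diet. The difference at probe set 2 was 0.80 ± 0.09 (SE), 1.74-fold, and no null pool came near a wild type one. At probe set 3 the null pools were more scattered, at 0.52, 0.67 and 0.73 on casein and 0.16, 0.25 and 1.01 on the high fat diet. The wild type pools there stood at -0.17, -0.76 and -0.51 on casein and at -0.18, -0.16 and -0.41 on the high fat diet, a difference of 0.92 ± 0.15 (SE) or 1.90-fold.

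Ide probe set 4 had a smaller difference, 0.44 ± 0.10 (SE). Its 6 null pools ran between 0.05 and 0.40 and its 6 wild type pools between -0.54 and -0.05, so the gap was 0.10. At probe set 5 the null pools ran between -0.28 and 0.72 and the wild type pools between -0.21 and 0.35. These ranges overlapped almost entirely, the difference was 0.14 ± 0.16 (SE), and it was -0.0039 without null casein pool 1, the pool at 0.72. The probe sets of Ide therefore disagree, and which transcripts probe set 5 reads was not examined.

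Fgfbp3 has a single probe set, and its gap was wider than that of any Ide probe set. The null pools stood at 0.42, 0.36 and 0.33 on casein, against -0.33, -0.60 and -0.56 in wild type pools on casein. On the high fat diet the null pools stood at 0.36, 0.47 and 0.84, against -0.84, -0.48 and -0.42 in wild type pools. The lowest null pool lay 0.66 above the highest wild type pool, the 8th widest gap of the 45037 probe sets. The difference over both diets was 1.003 ± 0.10 (SE), a 2.004-fold higher value in null pools, with 0.87 ± 0.14 (1.82-fold) on casein and 1.14 ± 0.14 (2.20-fold) on the high fat diet.

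**Figure D1:**
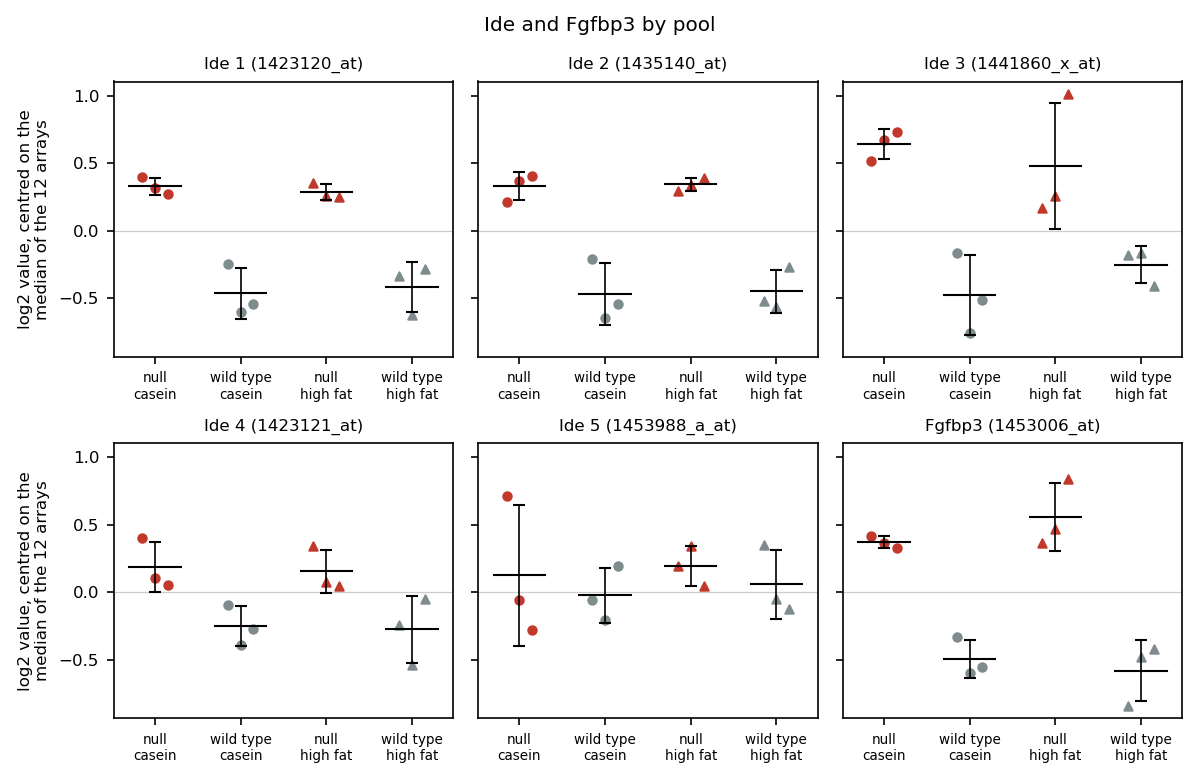
The panels plot the 5 Ide probe sets and the Fgfbp3 probe set in each pool (y axis: centred log2 value), null groups in red and wild type groups in grey, circles for casein and triangles for the high fat diet, with the mean and SD of 3 pools. All 6 null pools lie above all 6 wild type pools in 5 panels, and the groups overlap at Ide probe set 5.

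The long noncoding RNA 4931408D14Rik lies next to Ide, on the same strand and downstream of it. At its single probe set the null pools on casein stood at 0.41, 0.14 and 0.06, against -0.97, -0.82 and -1.11 in the wild type pools on casein. On the high fat diet the null pools stood at 0.46, -0.06 and 0.12, against -0.22, -0.67 and 0.13 in the wild type pools. The genotypes were far apart on casein, 1.17 ± 0.20 (SE, 2.25-fold), and overlapped on the high fat diet, 0.43 ± 0.20 (SE). Without the 3 pools that stand apart in liver or muscle markers (wild type casein pool 3, wild type high fat pool 2 and null high fat pool 1) the high fat difference was 0.07. Wild type casein pool 1 and null casein pool 1, with muscle marker medians of 2.77 and 1.87, were kept.

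Cpeb3, which encodes an RNA-binding protein of the family that controls cytoplasmic polyadenylation and translation, was lower in null pools at 3 of its 4 probe sets. At probe set 1 the null pools stood at -0.16, -0.24 and -0.33 on casein and at -0.06, -0.35 and -0.04 on the high fat diet. The wild type pools stood at 0.04, 0.46 and 0.16 on casein and at 0.57, 0.51 and 0.40 on the high fat diet. The genotypes did not overlap, but the gap was narrow, 0.09, the 354th widest. The difference was -0.55 ± 0.09 (SE), 1.47-fold lower in null pools. At probe set 2 it was -0.46 ± 0.10 and at probe set 3 -0.38 ± 0.12 (SE), both with some overlap, and at probe set 4 it was -0.02 ± 0.11 (SE).

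Marchf5, a ubiquitin ligase of the outer mitochondrial membrane, starts head to head with Cpeb3, and both had lower values in null pools. The 68 bases between their annotated starts, chr19:37207472-37207539 (GRCm38.p6, plus strand, read from Cpeb3 toward Marchf5), are shown because the pair shares them. Capitals mark a GC box, GGGCGG or its complement CCGCCC, which 32.7% of the 32851 windows of 250 bases hold on either strand.
Cpeb3 to Marchf5: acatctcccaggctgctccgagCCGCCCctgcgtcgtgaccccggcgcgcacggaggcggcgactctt
The piece is 73.5% G and C and holds 10 CpG dinucleotides. At Marchf5 probe set 3 the null pools stood at 0.09, -0.33 and -0.43 on casein and at -0.09, -0.34 and -0.72 on the high fat diet. The wild type pools stood at -0.18, 0.34 and 0.09 on casein and at 0.21, 0.12 and 0.17 on the high fat diet. The genotypes overlapped through null casein pool 1 and wild type casein pool 1, and the difference was -0.43 ± 0.13 (SE). Marchf5 probe sets 1 and 2 differed by -0.32 ± 0.09 and -0.27 ± 0.09 (SE), and probe set 4 by 0.00 ± 0.11 (SE).

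Exoc6 encodes a subunit of the exocyst, the complex that tethers secretory vesicles to the plasma membrane. Its 4 probe sets were all lower on average in null pools, with differences of -0.47 ± 0.11 at probe set 1, -0.43 ± 0.14 at probe set 2, -0.39 ± 0.12 at probe set 4 and -0.26 ± 0.10 at probe set 3 (SE). At probe set 1 the null pools ran between -0.50 and 0.02 and the wild type pools between -0.01 and 0.58. That overlap was slight and came from null high fat pool 1 and wild type casein pools 1 and 3.

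Hhex, a homeobox transcription factor of liver, endothelium and blood lineages, had a single probe set. Its null pools stood at 0.04, -0.04 and -0.22 on casein and at -0.23, -0.18 and -0.45 on the high fat diet. The wild type pools stood at -0.44, 0.10 and 1.18 on casein and at 0.27, 0.10 and 0.64 on the high fat diet. The highest pool, wild type casein pool 3, is also the pool with the highest median of liver markers (4.58), adrenal gland markers (2.38) and lymphocyte markers (1.42). The Hhex difference was -0.49 ± 0.22 (SE), and -0.26 ± 0.13 (SE) without that pool.

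Btaf1, an ATPase that removes the TATA-binding protein from DNA, lies between Fgfbp3 and Cpeb3 and differed little. Its 3 probe sets gave -0.12 ± 0.08 at probe set 1, -0.05 ± 0.09 at probe set 3 and 0.01 ± 0.07 at probe set 2 (SE). Tnks2, which encodes tankyrase 2, a poly-ADP-ribose polymerase that acts on AXIN and telomere proteins, lies on the other side of Fgfbp3. Its probe sets ran in both directions, with 0.24 ± 0.08 at probe set 1, 0.11 ± 0.07 at probe set 2 and -0.21 ± 0.13 at probe set 3 (SE).

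**Figure D2:**
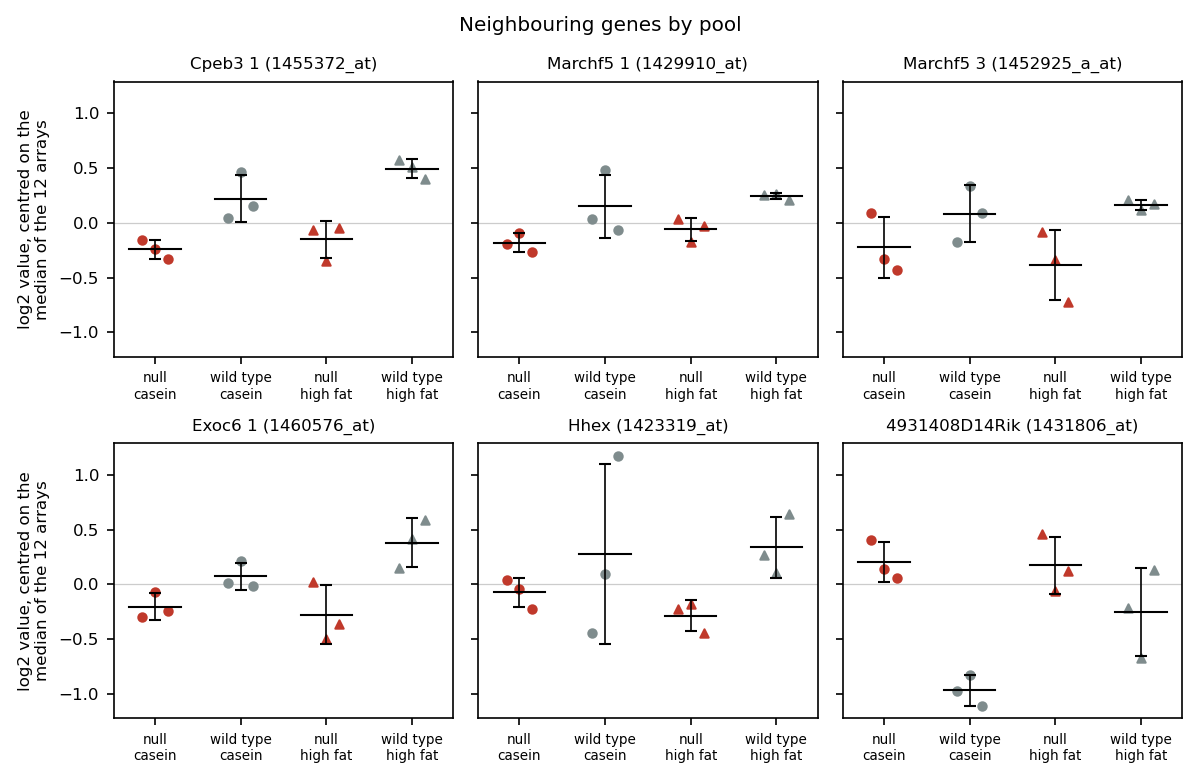
The panels plot 6 probe sets of neighbouring genes in each pool (y axis: centred log2 value), null groups in red and wild type groups in grey, with the mean and SD of 3 pools. At Cpeb3 probe set 1 every null pool is lower than every wild type pool, Hhex has 1 high wild type casein pool at 1.18, and 4931408D14Rik is lowest in the 3 wild type casein pools.

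In all, 6 of the 26 probe sets had no overlap between the 6 null and 6 wild type pools, 5 with the null pools higher (4 of Ide and 1 of Fgfbp3) and 1 with the null pools lower (Cpeb3). Over all 45037 probe sets, 2.54% had no such overlap, 1.06% with the null pools higher and 1.49% with the null pools lower. Nothing is read from these shares, since the genes were chosen by this contrast. The median difference was -0.08 over the 26 probe sets and -0.02 over all.

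Along the chromosome the high values did not form one run. In annotation order the measured genes are Tnks2, Fgfbp3, Btaf1, Cpeb3, Marchf5, 4931408D14Rik, Ide, Kif11, Hhex and Exoc6, so 3 measured genes with no higher probe set among the non-overlapping ones, Btaf1, Cpeb3 and Marchf5, lie between Fgfbp3 and the pair of 4931408D14Rik and Ide. The stretch holds 18 annotated genes, and the other 8 have no probe set used here. Kif11, a spindle motor protein next to Ide, was not one of the 9 genes. One of its probe sets differed by 0.82, with the null pools between -0.17 and 1.01 and the wild type pools between -0.59 and 0.42, while the others differed by 0.14 and 0.11. Of the 38 probe sets of the 10 nearest measured genes on each side, 0 separated the genotypes, beside 2.54% of all 45037 probe sets. That count is near the share over all, so no edge of the genotype difference is read from it. The differences of the 38 ran from -0.81 to 0.71 with a median of -0.04.

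**Figure D3:**
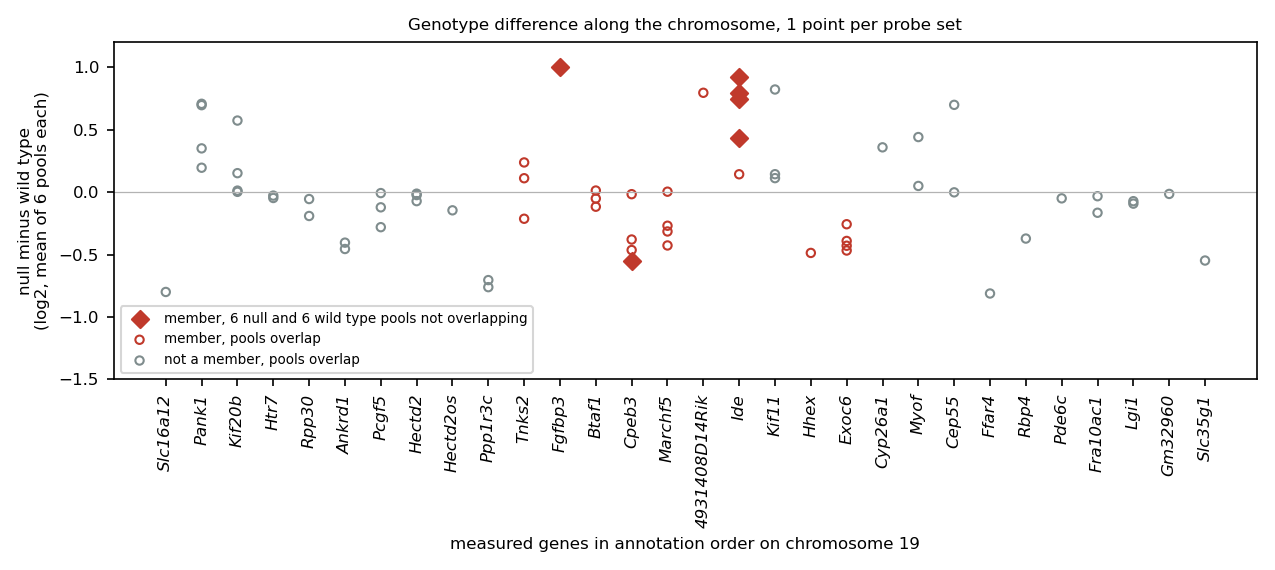
Each point is a probe set, placed by the order of its gene along chromosome 19 (x axis) and by the null minus wild type difference of the 6 pool means (y axis, log2), with filled diamonds where the 6 null and 6 wild type pools do not overlap. Filled diamonds stand at Fgfbp3 and Ide above 0 and at Cpeb3 below 0. None stands at the 20 flanking genes, beside 2.54% without overlap among all probe sets.

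Marker levels of other cell types also differed between the genotypes, with overlap. The median of 12 measured markers of ovary, oviduct and uterus, of 13 listed, ran from -0.04 to 0.84 in null pools and from -0.98 to 0.35 in wild type pools. The median of 13 mature adipocyte markers, of 15 listed, ran the other way, from -0.55 to 0.07 in null pools and from -0.02 to 0.39 in wild type pools. The median of 10 endothelial markers also ran lower, from -0.24 to 0.06 in null pools and from -0.12 to 0.59 in wild type pools, and that of 10 macrophage markers ran from -0.20 to 0.13 in null pools and from -0.11 to 0.59 in wild type pools. On the high fat diet the adipocyte and the endothelial medians of all 3 null pools lay below those of all 3 wild type pools. The reproductive tract medians lay above there, at 0.13, 0.77 and 0.84 in null pools against -0.56, -0.88 and -0.83 in wild type pools. Of the 9 genes, null pools lay below on that diet at Hhex, Cpeb3 and Marchf5 probe sets 1 to 3, Exoc6 probe sets 1, 2 and 4 and Tnks2 probe set 3. They lay above at Ide probe sets 1 to 4, Fgfbp3 and Tnks2 probe set 2. On casein the genotypes overlapped at Hhex, Cpeb3 probe set 3, Marchf5 probe sets 2 and 3, Exoc6 probe sets 2 and 4 and Tnks2 probe sets 2 and 3. The share of all probe sets that separate 3 against 3 pools was not counted, so nothing is read from this list. With the medians of the muscle, liver and reproductive tract lists as covariates, the null minus wild type difference was 0.55 ± 0.14 for Ide probe set 1, 0.51 ± 0.13 for probe set 2, 0.49 ± 0.23 for probe set 3, 0.34 ± 0.19 for probe set 4 and 0.12 ± 0.29 for probe set 5 (SE). It was 0.81 ± 0.19 for Fgfbp3 and 0.94 ± 0.27 for 4931408D14Rik (SE). Ide probe set 3, at 0.92 without covariates, moved most of the Ide probe sets. In the same fit Cpeb3 probe set 1 differed by -0.30 ± 0.12, Marchf5 probe set 1 by -0.08 ± 0.12, Exoc6 probe set 1 by -0.24 ± 0.18 and Hhex by -0.02 ± 0.10 (SE). The reproductive tract medians of the genotypes overlapped only through wild type casein pool 1 (0.35). That covariate nearly follows genotype, so tissue and genotype cannot be told apart in this fit. Without the 3 pools that stand apart, Ide probe set 1 differed by 0.66, Fgfbp3 by 1.06, Cpeb3 probe set 1 by -0.59 and Exoc6 probe set 1 by -0.56. The part of adipocyte, endothelial and macrophage shares in these differences was not tested.

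**Figure D4:**
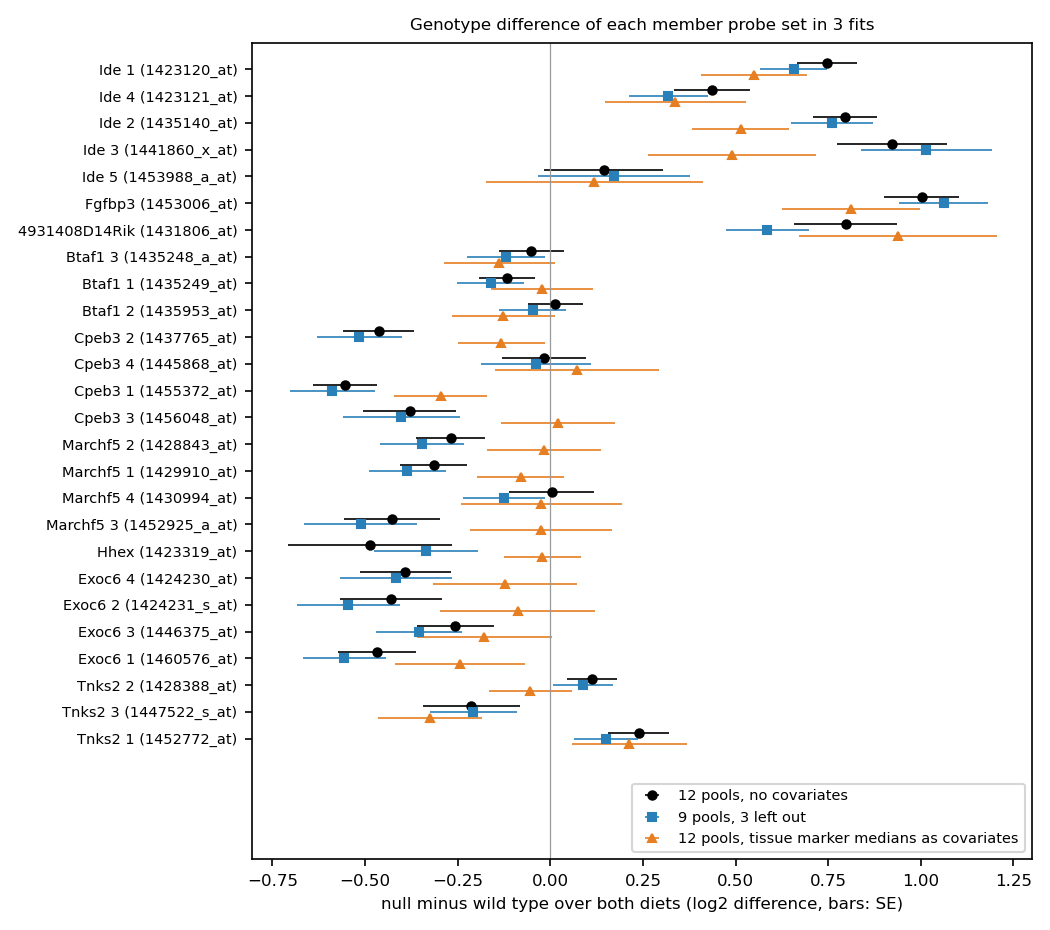
For each of the 26 probe sets (rows), the null minus wild type difference over both diets (x axis, log2, bars are SE) is plotted in the fit of 12 pools, of 9 pools and of 12 pools with tissue marker medians as covariates. Ide probe set 1 and Fgfbp3 stay above 0 with their bars in the 3 fits (0.55 and 0.81 with covariates), while Marchf5 and Hhex lie near 0 with covariates. The reproductive tract covariate nearly follows genotype, so this fit does not tell tissue from genotype.

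Diet was not used to choose the genes and was tested. No probe set of the 9 genes passed the threshold in any of 4 comparisons of high fat diet and casein, by limma with Benjamini-Hochberg adjustment over 45037 probe sets. The share called over all probe sets was 0.00222% for the diet averaged over both genotypes (1 probe set), and 0% in null pools, in wild type pools and for the interaction, which subtracts the wild type diet difference from the null one. At an unadjusted p under 0.05 there were 1, 0, 2 and 1 of the 26 in the order named, against 2307, 1810, 3156 and 2532 over all probe sets. The median high fat minus casein difference of the 26 was -0.03 in null pools and 0.08 in wild type pools, against -0.01 and 0.00 over all probe sets.

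No diet difference of Ide or Fgfbp3 passed the test. For Ide probe set 1 the high fat minus casein difference was -0.04 ± 0.12 in null pools and 0.05 ± 0.12 in wild type pools (SE). Their 95% intervals were -0.30 to 0.21 and -0.21 to 0.30, and the limma adjusted p was 0.9999 and 0.9488. For Fgfbp3 the difference was 0.19 ± 0.14 in null pools and -0.09 ± 0.14 in wild type pools (SE), with intervals of -0.13 to 0.50 and -0.40 to 0.23 and limma adjusted p of 0.9999 and 0.9172. The interaction was -0.09 ± 0.16 for Ide probe set 1 (limma adjusted p = 0.9466) and 0.27 ± 0.20 for Fgfbp3 (limma adjusted p = 0.8666, interval -0.17 to 0.72).

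The 2 probe sets at an unadjusted p under 0.05 in wild type pools were those of 4931408D14Rik and Cpeb3. For 4931408D14Rik all 3 wild type pools on the high fat diet, at -0.22, -0.67 and 0.13, lay above all 3 on casein, at -0.97, -0.82 and -1.11. The difference was 0.71 ± 0.20 (SE, 95% interval 0.29 to 1.14, limma adjusted p = 0.5606), while in null pools it was -0.03 ± 0.20 (SE, limma adjusted p = 0.9999). The interaction of 4931408D14Rik was -0.74 ± 0.28 (SE, 95% interval -1.35 to -0.14), and it did not pass the adjustment (limma adjusted p = 0.8446). For Cpeb3 probe set 1 the diet difference in wild type pools was 0.27 ± 0.12 (SE, limma adjusted p = 0.7074), with the groups overlapping.

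**Figure D5:**
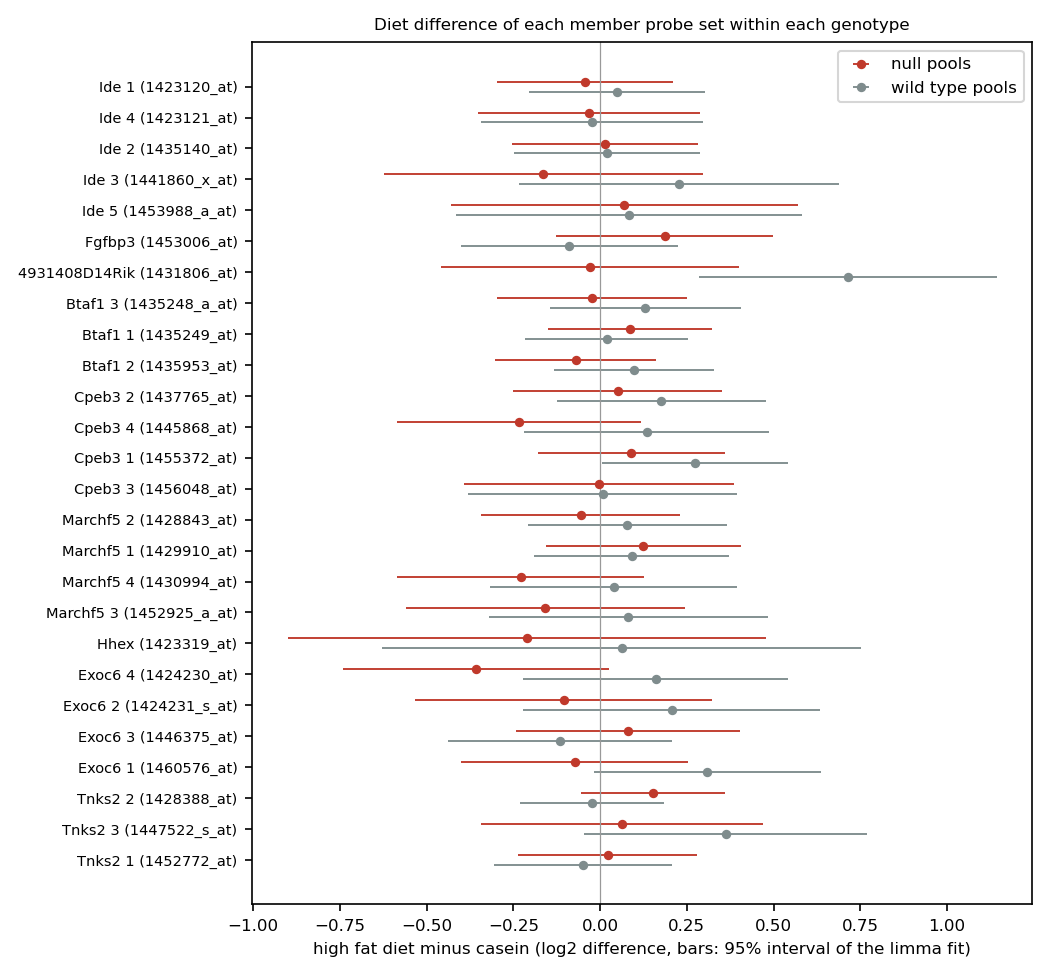
For each of the 26 probe sets (rows), the high fat minus casein difference (x axis, log2) is plotted in null pools (red) and wild type pools (grey) with the 95% interval of the limma fit. Nearly every interval spans 0, with those of 4931408D14Rik (0.29 to 1.14) and Cpeb3 probe set 1 in wild type pools lying above it.

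The probe sets most like and most opposite to Ide probe set 1 and Fgfbp3 over the 12 pools were picked by Pearson correlation, as a description, since all 12 pools share the genotype difference. Probe sets of the 9 genes themselves were left out of the ranking: Ide probe sets 2 and 4 correlated with Ide probe set 1 at 0.97 and 0.925. Among other genes, closest to Ide were Txn1 (0.94), Hirip3 (0.94), Npas2 (0.93), Terf2 (0.92) and Smpdl3b (0.92), and most opposite were Coq7 (-0.96), Bnip1 (-0.95), Fam210a (-0.94), Zbtb44 (-0.93) and Tbl1xr1 (-0.93). Closest to Fgfbp3 were Slc16a9 (0.97), Dpy19l3 (0.97), Cdkn1b (0.96), Smpdl3b (0.96) and Siva1 (0.96), and most opposite were Katna1 (-0.96), Rasgrp2 (-0.96), Mmd (-0.96), Tmem45b (-0.95) and Psmd14 (-0.95). Of these genes Rasgrp2 is the one on chromosome 19, outside the stretch. Smpdl3b, a lipid-anchored phosphodiesterase, stands in both lists and had a null minus wild type difference of 1.57.

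Within the stretch, pools that stood high in their own group for one gene could be compared with those for another, by the correlation of deviations from the 4 group means over 12 pools. Over the 5 Ide probe sets the correlation with 4931408D14Rik was 0.62, 0.15, -0.38, 0.81 and 0.13, in the order of their numbers. The pairs named were chosen after their values were seen. The pair farthest from 0 was Ide probe set 3 with Exoc6 probe set 2 (-0.92), followed by Btaf1 probe set 1 with Exoc6 probe set 2 (0.91). Pools also deviated together for Cpeb3 probe set 2 and Marchf5 probe set 1 (0.91) and Marchf5 probe set 3 and Exoc6 probe set 2 (0.84). Null high fat pool 3 was the highest of the 12 pools at Ide probe set 3 (1.01). It was the lowest at Exoc6 probe set 2 (-0.80), Btaf1 probe set 1 (-0.33) and Marchf5 probe set 3 (-0.72). Correlations without that pool were not computed. Ide probe set 1 and Fgfbp3, which correlated at 0.90 over the 12 pools, had a correlation of 0.08 once group means were taken out. Between Ide probe set 2 and Fgfbp3 the correlation of deviations was 0.51, so the Ide probe sets differ in this.

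Other genes of the pathways these proteins belong to were read in 7 lists of 160 probe sets. In the null minus wild type fit over both diets 13 of the 160 passed the adjusted threshold, 2 higher and 11 lower, beside 5.88% of all 45037 probe sets, 3.32% higher and 2.56% lower. In the 4 diet comparisons 0 of the 160 passed. The median null minus wild type difference of each list lay between -0.21 and -0.06, against -0.02 over all probe sets.

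Among 34 probe sets of insulin degradation and of the metallopeptidase family of Ide, 0 were higher and 2 lower, both of Ceacam1, a receptor that takes part in insulin clearance by liver. One differed by -0.47 ± 0.11 (SE, limma adjusted p = 0.03655) and the other by -0.41 ± 0.10 (SE, limma adjusted p = 0.03871). Among 31 probe sets of fibroblast growth factors, their receptors and binding proteins, 1 was higher and 2 lower. Fgf13, an intracellular member that binds sodium channels, differed by -1.03 ± 0.15 at one probe set (SE, limma adjusted p = 0.008017) and at another by -1.01 ± 0.19 (SE, limma adjusted p = 0.018). At the more strongly changed Fgf13 probe set the null pools stood at -0.04, -0.64 and -0.21 on casein and at -0.80, -1.003 and -1.02 on the high fat diet, against 0.23, 0.47 and 0.04 on casein and 0.58, 0.16 and 0.98 on the high fat diet for the wild type. The receptor Fgfr2 was higher at one probe set by 0.79 ± 0.18 (SE, limma adjusted p = 0.03518).

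Among 22 exocyst probe sets 2 were lower, the GTPase Rala with a difference of -0.44 ± 0.08 (SE, limma adjusted p = 0.01738) and the subunit Exoc3 with a difference of -0.37 ± 0.09 (SE, limma adjusted p = 0.04323). Among 14 of the CPEB family and cytoplasmic polyadenylation 2 were lower, Cpeb2 with a difference of -1.23 ± 0.25 (SE, limma adjusted p = 0.02241) and Cpeb4 with a difference of -0.56 ± 0.13 (SE, limma adjusted p = 0.03329), both RNA-binding relatives of Cpeb3. Among 26 of tankyrase and AXIN, Apc was lower with a difference of -0.37 ± 0.09 (SE, limma adjusted p = 0.03498) and the kinase Gsk3b higher by 0.33 ± 0.08 (SE, limma adjusted p = 0.04219). Among 23 of mitochondrial fission and fusion 2 were lower, both of the fusion GTPase Opa1, with differences of -0.75 ± 0.16 (SE, limma adjusted p = 0.02703) and -0.44 ± 0.10 (SE, limma adjusted p = 0.03541). None of 10 probe sets of regulators of the TATA-binding protein passed, where Dr1 differed by -0.45 and Taf1 by -0.29 (limma adjusted p = 0.1075 and 0.1805). These calls are of single probe sets, and other probe sets of the same genes did not all pass. With the mean of the probe sets of each gene, Fgf13, Opa1, Apc, Fgfr2 and Rala still passed. Exoc3, Cpeb2, Gsk3b, Ceacam1 and Cpeb4 did not (limma adjusted p = 0.111, 0.1131, 0.1697, 0.1376 and 0.05984 in that order). The Fgf13 probe set at -1.03 and Rala passed with each of the 12 pools left out in turn. The Fgf13 probe set at -1.01 passed with 10 of 12, and the others with 3 to 7 of 12. With the tissue marker medians as covariates 0 of the 160 passed, when 8 of all 45037 probe sets did. The differences in that fit were still -0.91 and -0.89 for Fgf13, -1.13 for Cpeb2 and -0.39 for Apc. They were further from 0 for Rala (-0.56) and Ceacam1 (-0.77 and -0.59), and nearer to it for Cpeb4 (-0.42), Fgfr2 (0.33), Opa1 (-0.11 and -0.27), Exoc3 (-0.18) and Gsk3b (0.11). The limma adjusted p of these 13 ran from 0.4748 to 0.9997.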

How the data were processed

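Total RNA from abdominal fat pads (8 µg per array) was measured on 12 Affymetrix arrays. The submitters' processing notes name GCOS and RMA without versions or settings. No source states the logarithm's base; the deposited values were read as log2, since RMA returns log2. In the deposited table the median of each probe set over the 12 arrays is 0, with 0 probe sets departing by more than 1e-06, so signal over background cannot be read and the number of arrays limits the precision. No array carries a batch label. The highest correlation between arrays was 0.63, so none is a copy of another.

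The 64 control probe sets were left out and each of the other 45037 was fitted on its own. Of these, 34945 carry 1 gene in the platform annotation, 932 several and 9160 none; 34741 of the 34945 matched the RefSeq table (GRCm38.p6), which gave current names and gene order only. The 4 group means were fitted in limma 3.58.1 (R 4.3.3; lmFit, contrasts.fit, eBayes; 8 residual and 3.2 prior degrees of freedom), with two-sided p-values adjusted over all fitted probe sets by Benjamini and Hochberg and a threshold of 0.05. The script was tested on simulated data. Named are all probe sets of the 9 genes, separated genes in the stretch and its flanks, the 5 probe sets most like and 5 most opposite to Ide and Fgfbp3 among genes other than the 9, and in each pathway list those past the threshold (at most 4) or the 2 with the smallest p; Kif11 and the order of genes were described after values were seen. The genes, lists and tests were chosen with earlier results of these data known. Pool numbers in the labels were not used to pair pools in the main fit. The correlation of deviations of same-numbered pools ran from -0.51 to 0.53 and was over 0.1 in 3 of 18 pairs. Those 3 joined the diets within a genotype: null pools 1 (0.52), null pools 3 (0.53) and wild type pools 3 (0.24). A pairing within genotypes can therefore not be told from these values. Alternatives were gene means, quantile normalization again, array weights, single-gene probe sets only, a replicate block, robust eBayes, tissue marker medians as covariates, 3 pools left out and each pool left out in turn; running them on the pathway lists was added after seeing the data.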

Additional observations from a re-analysis of the deposited data

How the results depend on the processing

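With 3 pools a group and centred values, small diet differences and levels cannot be read. Under every alternative run, 0 of the 26 probe sets passed in the 4 diet comparisons, the replicate block included. The number whose genotypes did not overlap, 6, was 10 with the 3 pools that stand apart in liver or muscle markers left out. It was 6 to 9 with each pool left out in turn. Leaving pools out can only keep or raise this number, so nothing is read from the rise. With gene means it was 3 of 9 genes. The share over all probe sets or all genes in these settings is not given beside these counts, so nothing about the 9 genes is read from them. The Ide probe set 1 difference ran from 0.69 to 0.80 and the Fgfbp3 difference from 0.93 to 1.05 with each pool left out; with tissue marker medians as covariates they were 0.55 and 0.81. The number called over all probe sets is not given beside the pathway counts that follow, so nothing about the lists is read from them. With gene means 6 of 68 pathway genes passed. The 13 pathway probe sets past the threshold became 31 (array weights), 8 (replicate block), 0 (covariates) and 6 (3 pools left out). They became 2 to 18 with each pool left out in turn. The count was 2 without null casein pool 2 and without null casein pool 3, 3 without null high fat pool 2 or pool 3, 4 without wild type casein pool 2 or wild type high fat pools 2 or 3, and 7 without wild type high fat pool 1. The sign of the genotype difference turned with covariates at Cpeb3 probe sets 3 (0.02) and 4 (0.07), Marchf5 probe set 4 (-0.02), Tnks2 probe set 2 (-0.05) and Btaf1 probe set 2 (-0.13). The 4931408D14Rik difference over both diets ran from 0.59 with 3 pools left out to 1.07 with quantile normalization again. The causes were not tested.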
